A study of Mus musculus with 6 samples.

Results

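De novo fatty acid synthesis, the making of new fatty acids from cytosolic acetyl-CoA, was followed through 10 genes in livers of mice that lacked the cholesterol exporter ABCA1 in hepatocytes (HSKO) and of floxed controls labelled wildtype (WT). The genes were taken by symbol for their place in the pathway: Slc25a1, Acly, Acss2, Acaca, Acacb, Fasn, Me1, Srebf1, Mlxipl and Thrsp. Each matched 1 of the 29981 gene rows of the deposited table, of which 13807 were above 0 in some library. All 10 genes had a lower mean in HSKO than in WT livers on the deposited scaling. Fasn, Acly, Me1 and Mlxipl passed the test as lower, as did 11.6% of all rows tested. Thrsp was nearly level between the groups. Hepatocyte markers were lower in HSKO livers as well, and with scaling to them Fasn and Me1 were still called, while Acly and Mlxipl were not.

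Messenger RNA was sequenced from livers of C57BL/6 mice, 3 samples labelled HSKO and 3 labelled WT. In HSKO mice Abca1 was removed by a Cre recombinase that the albumin promoter drives in hepatocytes, so that other liver cells keep the gene, and the controls carried the floxed allele. All mice went without food from 9 am to 1 pm before the livers were taken. The labels give neither age nor sex, nor whether the controls carried Cre, and nothing ties each sample to an animal of its own, so the p-values speak only of how these samples vary.

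In the liver, citrate leaves the mitochondria and is split in the cytosol into acetyl-CoA, which is carboxylated to malonyl-CoA and then joined, with NADPH as the reductant, into palmitate. The genes of these steps are induced together after a meal. SREBP-1c (from Srebf1) carries the insulin and liver X receptor signals, ChREBP (from Mlxipl) carries the carbohydrate signal, and both bind near the start sites of many of the enzymes' genes.

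The promoters of 4 start sites are shown because they belong to the gene at the end of the pathway, the gene whose group means were closest and the regulator called lower, Mlxipl, at both of its annotated starts. Each window runs from 250 bases before to 50 bases after a start site, 5′ to 3′ on the gene's strand, in the RefSeq annotation of GRCm38.p6. Capitals mark matches on either strand to the CCAAT box (CCAAT), the E-box at the core of the carbohydrate response element (CACGTG) and the sterol response element core (TCACNCCAC). The windows are chr11:120824498-120824797 on the minus strand for Fasn, chr7:97417501-97417800 on the minus strand for Thrsp, and chr5:135089640-135089939 and chr5:135106641-135106940 on the plus strand for the upstream and downstream starts of Mlxipl.
Fasn: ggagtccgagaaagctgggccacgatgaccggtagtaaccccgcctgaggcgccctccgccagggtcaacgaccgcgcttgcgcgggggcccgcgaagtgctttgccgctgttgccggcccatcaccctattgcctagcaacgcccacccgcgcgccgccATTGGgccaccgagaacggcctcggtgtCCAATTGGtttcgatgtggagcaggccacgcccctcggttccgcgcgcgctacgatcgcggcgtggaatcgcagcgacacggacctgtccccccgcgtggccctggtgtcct
Thrsp: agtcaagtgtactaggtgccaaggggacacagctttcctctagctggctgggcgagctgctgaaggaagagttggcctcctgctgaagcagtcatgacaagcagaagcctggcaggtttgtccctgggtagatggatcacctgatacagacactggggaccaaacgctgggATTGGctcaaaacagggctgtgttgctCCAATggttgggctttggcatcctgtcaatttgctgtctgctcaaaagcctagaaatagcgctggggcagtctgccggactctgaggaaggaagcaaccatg
Mlxipl, upstream start: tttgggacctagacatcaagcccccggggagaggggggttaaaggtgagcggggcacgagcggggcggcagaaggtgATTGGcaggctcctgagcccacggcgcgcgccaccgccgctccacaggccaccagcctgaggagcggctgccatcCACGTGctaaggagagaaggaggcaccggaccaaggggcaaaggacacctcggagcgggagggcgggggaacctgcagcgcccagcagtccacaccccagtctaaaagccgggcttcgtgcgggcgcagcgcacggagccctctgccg
Mlxipl, downstream start: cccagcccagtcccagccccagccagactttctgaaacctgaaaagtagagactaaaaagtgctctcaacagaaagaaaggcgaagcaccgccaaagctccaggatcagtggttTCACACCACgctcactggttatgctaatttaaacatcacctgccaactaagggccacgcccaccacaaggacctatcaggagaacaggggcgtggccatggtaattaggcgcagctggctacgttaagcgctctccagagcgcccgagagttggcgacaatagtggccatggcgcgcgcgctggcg

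The Fasn window held the CCAAT box at 3 places, starting at positions -90, -62 and -59 relative to the start site, and the last 2 of these overlapped on opposite strands. The Thrsp window held it at -79 and -52. The upstream Mlxipl start had an E-box at -98, and the downstream start had TCACACCAC, a match to the sterol response element core, from -136 to -128. Over all 14 annotated starts of the 10 genes, 10 windows (71.4%) held a CCAAT box, against 37.4% of all 32851 promoter windows. The E-box was in 2 windows (14.3%), those of Slc25a1 and the upstream Mlxipl start, against 7.15% of all windows. The sterol response element core was in 1 window (7.14%) against 1.24%, and the GC box GGGCGG was in 7 windows (50%) against 35.7%. The exact direct repeat of the liver X receptor consensus, with 4 bases between the repeats, was in 0 of the 14 windows and in 5 of all windows. Acaca was the gene with no CCAAT box in its window. That window (chr11:84195188-84195487) lies inside the annotated span of Acaca, which begins at 84129672, so sequence at the start of the span was not searched. The Acacb window (chr5:114165268-114165567) likewise lies inside its span, which begins at 114146535. The windows of these genes had a median GC content of 63.8%, against 52.7% over all windows, and a match to letters is no evidence of binding. The expression values are per gene and do not tell the start sites of Mlxipl apart.

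Values are given as normalised reads, the deposited scale, in which the reads of a library are divided by its size factor. Whole reads could be recovered from them, and gave 631020 to 702013 reads in HSKO libraries and 838637 to 933319 in WT libraries. A single row, BC071253, took 46.2% to 57.8% of the reads in HSKO libraries and 43.1% to 52.9% in WT libraries. The 10 genes together had 61, 85 and 66 reads in the HSKO libraries, against 300, 302 and 325 in the WT libraries, so counting error is large for each gene. Abca1 had 2.92, 1.45 and 2.66 normalised reads in HSKO livers, against 15.3, 23.7 and 19.2 in WT livers, as the labels say (limma log2 fold change -2.62, SE 0.50, adjusted p = 0.000862).

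The tissue was checked by cell type markers. The 17 hepatocyte markers with a row summed to 9198 to 13834 normalised reads in HSKO livers, against 14700 to 17318 in WT livers, so the groups did not overlap. Adipocytes also make fatty acids. Of 9 adipocyte markers, 4 were above 0, with sums of 5.32 to 10.2 in HSKO livers and 3.05 to 7.90 in WT livers, while Adipoq, Plin1, Lep, Retn and Slc2a4 were at 0 in all 6 libraries. Kupffer cell and macrophage markers (9 of 9 above 0) summed to 45.3 to 67.8 in HSKO and 54.2 to 99.4 in WT livers. Endothelial markers (8 of 8) summed to 20.4 to 36.5 in HSKO and 39.7 to 52.5 in WT livers, and stellate cell and fibroblast markers (8 of 8) to 11.7 to 20.4 in HSKO and 32.1 to 38.9 in WT livers. These last 2 lists did not overlap between the groups, and their part in the results was not tested. Cholangiocyte markers (4 of 6, with Krt19 and Krt7 at 0) summed to 5.32 to 17.5 in HSKO and 10.7 to 16.5 in WT livers, and blood and leukocyte markers (6 of 9, with Cd3e, S100a8 and S100a9 at 0) to 1.46 to 10.6 in HSKO and 2.29 to 15.1 in WT livers. In whole liver, fewer cells of a type and less RNA per cell cannot be told apart.

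Whether the pathway's genes differ between HSKO and WT livers was tested with limma on log2(normalised reads + 1), over 2750 rows whose mean reached 10. Of the 10 genes, 6 reached that mean. Among them 4 were called lower in HSKO livers at an adjusted p under 0.05 and 0 higher, where 11.6% of all rows tested were called lower and 28.5% higher. At an unadjusted p under 0.05 the number higher was 0 as well. All 10 log2 fold changes were below 0, between -2.07 for Me1 and -0.08 for Thrsp, with a median of -1.17. The median was 0.07 over all rows tested and -0.083 over rows with a mean of at least 5, which all 10 genes reach. In 8 of the 10 genes every HSKO library lay below every WT library, as did 20.1% of all rows with a mean of at least 10 and 18.8% of those with a mean of at least 5. With the lower minimum all 10 genes were tested, over 4495 rows, and 5 were called lower (6.94% of all rows) and 0 higher (17.3%). The added gene was Acss2. On recovered reads with that minimum, edgeR called 5 of the 10 lower and 0 higher (7.68% and 18.7% of all rows), and DESeq2 called 5 lower and 0 higher (4.14% and 15.3%), with no adjusted p for Acaca, Acacb and Srebf1.

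**Figure D1:**
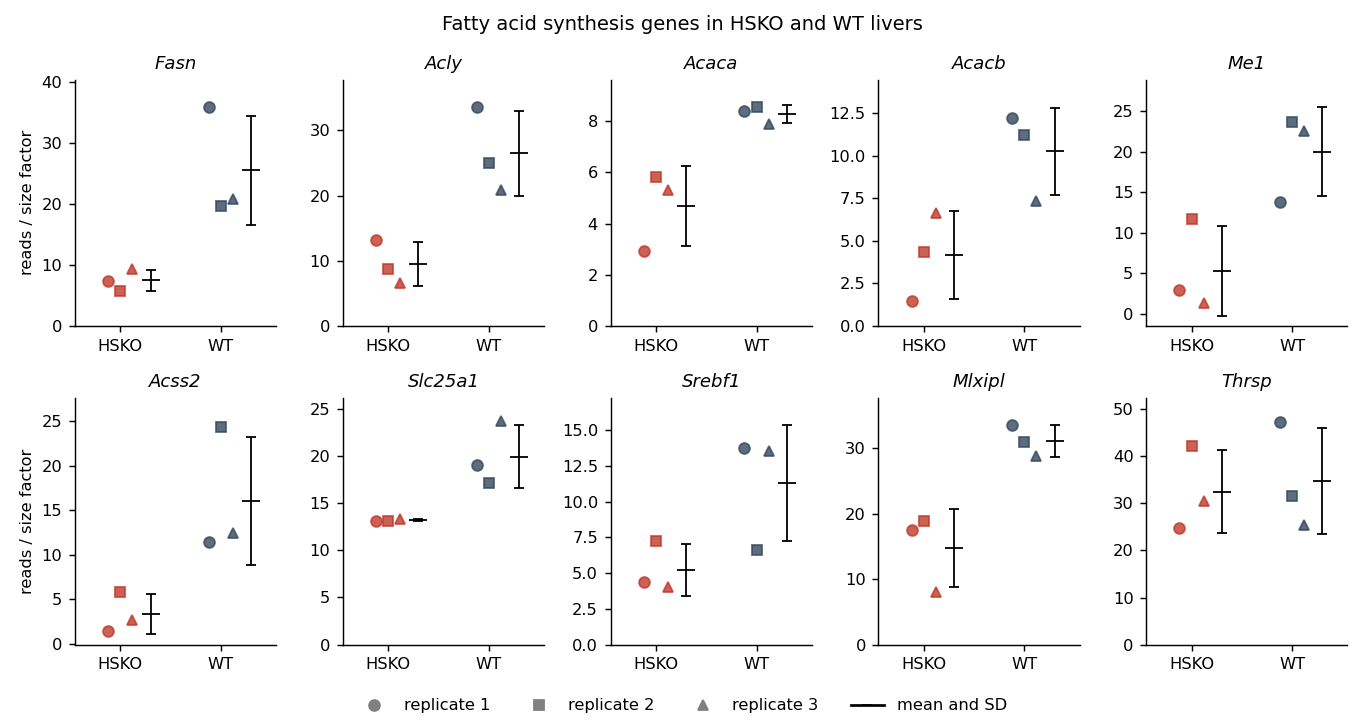
Normalised reads (reads divided by size factor, vertical axis, each panel with its own scale) of the 10 genes in each of 3 HSKO and 3 WT samples. Bars give the mean and SD of each group. In 8 panels all HSKO points lie below all WT points, and in the Srebf1 and Thrsp panels they overlap.

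Slc25a1 encodes the mitochondrial citrate carrier, which exports the citrate that feeds the pathway (chr16:17925223-17928219, minus strand). It had 13.2, 13.1 and 13.3 normalised reads in HSKO livers, against 19.1, 17.1 and 23.7 in WT livers. The groups did not overlap, and the HSKO values varied by less (coefficient of variation 0.819%) than counting error gives on average for 9, 9 and 10 reads. The difference did not pass with limma (log2 fold change -0.55, SE 0.30, adjusted p = 0.147), and it passed with edgeR's quasi-likelihood test on the recovered reads over the same rows (log2 fold change -0.83, adjusted p = 0.0466) but not over rows with a mean of at least 5 (-0.61, adjusted p = 0.178).

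Acly encodes ATP citrate lyase, which splits the exported citrate into acetyl-CoA and oxaloacetate (chr11:100476353-100528000, minus strand). It had 13.2, 8.72 and 6.65 normalised reads in HSKO livers, against 33.6, 25.0 and 20.9 in WT livers. Every HSKO library was below every WT library, with means of 9.51 ± 3.32 in HSKO and 26.5 ± 6.48 in WT livers (SD, n = 3 each). The log2 fold change was -1.41 (SE 0.33, limma adjusted p = 0.00302).

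Acss2 encodes the cytosolic acetyl-CoA synthetase that makes acetyl-CoA from acetate (chr2:155517948-155585724, plus strand). It had 1.46, 5.82 and 2.66 normalised reads in HSKO livers, against 11.4, 24.3 and 12.4 in WT livers, from 1, 4 and 2 reads against 15, 37 and 22. The groups did not overlap. Its summed reads, relative to the summed size factors, were 4.88-fold lower in HSKO livers, with an exact 95% counting interval from 2.25 to 12.6. Its mean of 9.69 fell under the minimum of 10. With a minimum of 5 it was called lower by limma (log2 fold change -2.04, SE 0.47, adjusted p = 0.00360), by edgeR (adjusted p = 0.00233) and by DESeq2 (adjusted p = 0.00938). It was not called by limma without WT replicate 2, its highest library (adjusted p = 0.0604). The log2 ratio of Acss2 to Acly was -1.37 ± 1.04 in HSKO and -0.74 ± 0.72 in WT livers (exact 2-sided permutation p = 0.5, adjusted 0.7). The annotated span of Acss2 overlaps Ggt7, Gss, an antisense gene and 2 processed pseudogenes, and no source used here gives the strand setting of the counting, so reads of these genes may be among its own.

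Acaca and Acacb encode the acetyl-CoA carboxylases, which make malonyl-CoA. The cytosolic enzyme from Acaca feeds synthesis, while the malonyl-CoA made by the Acacb product at the outer mitochondrial membrane restrains the entry of fatty acids for oxidation. The Acaca row, which also names the transcript AK040794 (chr11:84129672-84401651, plus strand), had 2.92, 5.82 and 5.32 normalised reads in HSKO livers, against 8.39, 8.55 and 7.90 in WT livers. Acacb (chr5:114146535-114250761, plus strand) had 1.46, 4.36 and 6.65 in HSKO livers, against 12.2, 11.2 and 7.33 in WT livers. Neither gene's groups overlapped, and the closest values were 6.65 in HSKO replicate 3 and 7.33 in WT replicate 3 for Acacb. Neither passed the test with a minimum mean of 5. The log2 fold change was -0.75 for Acaca (SE 0.45, limma adjusted p = 0.224) and -1.24 for Acacb (SE 0.49, limma adjusted p = 0.0689). Acacb was called without HSKO replicate 3 (log2 fold change -1.60, adjusted p = 0.0348). The counts were low, at 2, 4 and 4 reads of Acaca and 1, 3 and 5 of Acacb in HSKO livers, against 11, 13 and 14 and 16, 17 and 13 in WT livers. The log2 ratio of Acaca to Acacb was 0.25 ± 0.48 in HSKO and -0.25 ± 0.31 in WT livers (SD, n = 3 each, exact 2-sided permutation p = 0.2, adjusted over 4 ratios 0.7).

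Fasn encodes fatty acid synthase, which builds palmitate from acetyl-CoA and malonyl-CoA (chr11:120805846-120824547, minus strand). It had 7.31, 5.82 and 9.31 normalised reads in HSKO livers, against 35.9, 19.7 and 20.9 in WT livers, from 5, 4 and 7 reads against 47, 30 and 37. The highest HSKO value, 9.31, lay far below the lowest WT value, 19.7, and WT replicate 1 stood above the other WT libraries. The means were 7.48 ± 1.75 in HSKO and 25.5 ± 9.00 in WT livers (SD, n = 3 each, log2 fold change -1.61, SE 0.35, limma adjusted p = 0.00165). In summed reads relative to size factors it was 3.29-fold lower in HSKO livers (counting interval 1.94 to 5.95). The log2 ratio of Fasn to Acly was -0.28 ± 0.63 in HSKO and -0.08 ± 0.22 in WT livers (exact 2-sided permutation p = 0.6, adjusted 0.7).

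Me1 encodes cytosolic malic enzyme, which yields NADPH as it turns malate into pyruvate (chr9:86581371-86695953, minus strand). It had 2.92, 11.6 and 1.33 normalised reads in HSKO livers, against 13.7, 23.7 and 22.6 in WT livers. The groups did not overlap, but HSKO replicate 2 lay close to the lowest WT library, and the coefficient of variation was 105% in HSKO and 27.3% in WT livers. Among the genes called in the main test its log2 fold change was the most negative of the 4 (-2.07, SE 0.53, limma adjusted p = 0.00499). In summed reads relative to size factors it was 3.94-fold lower in HSKO livers (counting interval 2.11 to 8.17).

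The regulators were lower in mean as well. Mlxipl, which encodes ChREBP (chr5:135089890-135138382, plus strand), had 17.5, 18.9 and 7.98 normalised reads in HSKO livers, against 33.6, 30.9 and 28.8 in WT livers. The groups stood apart, with HSKO replicate 3 well below the other HSKO libraries (log2 fold change -1.10, SE 0.32, limma adjusted p = 0.0107). Without that library Mlxipl was not called (log2 fold change -0.74, adjusted p = 0.0517). Srebf1, which encodes SREBP-1 (chr11:60199089-60222581, minus strand), had 4.38, 7.27 and 3.99 normalised reads in HSKO livers, against 13.7, 6.58 and 13.5 in WT livers. WT replicate 2 lay below HSKO replicate 2, so the groups overlapped. With a minimum mean of 5 Srebf1 did not pass (log2 fold change -0.96, SE 0.42, limma adjusted p = 0.103). The log2 ratio of Srebf1 to Mlxipl was -1.30 ± 0.47 in HSKO and -1.45 ± 0.55 in WT livers (exact 2-sided permutation p = 0.7, adjusted 0.7). The annotated span of Srebf1 overlaps the gene Rai1 and 2 miRNA genes.

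Thrsp encodes Spot 14, a nuclear and cytosolic protein that accompanies lipogenesis and responds to thyroid hormone and carbohydrate (chr7:97412938-97417730, minus strand). It had 24.8, 42.2 and 30.6 normalised reads in HSKO livers, against 47.3, 31.6 and 25.4 in WT livers. The groups overlapped over most of their range, with means of 32.5 ± 8.82 in HSKO and 34.8 ± 11.3 in WT livers (SD, n = 3 each). The log2 fold change was -0.08 (SE 0.29, limma adjusted p = 0.847). In summed reads relative to size factors it was 1.04-fold lower in HSKO livers, with a counting interval from 0.776 to 1.40. That interval lies below the interval of Fasn, but both cover counting error only and not the variation between samples. The number of Thrsp reads per Fasn read, which no scaling can alter, was 3.40, 7.25 and 3.29 in HSKO livers, against 1.32, 1.6 and 1.22 in WT livers. This ratio was computed after the values were seen. Its groups did not overlap, and the exact 2-sided permutation p of 0.1 is the smallest that 3 against 3 samples can give.

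The fold changes were read on other scalings, since the libraries of the groups differ in size and in marker content. From deposited to other scaling, the median log2 fold change of all rows tested moved by -0.20 with TMM, 0.10 with the upper quartile, -0.09 with quantile normalization, 0.52 with hepatocyte markers, -0.64 with total reads and -0.47 with total reads without the top row. Of the 10 genes, 9 stayed below 0 on every scaling that gave them a value. Thrsp changed direction, to 0.03 with the upper quartile and 0.45 with hepatocyte markers, and was called lower at -0.73 with total reads (limma adjusted p = 0.0423). Scaled to hepatocyte markers, Fasn (log2 fold change -1.11, limma adjusted p = 0.0275) and Me1 (-1.57, adjusted p = 0.0376) were still called, where 0.909% of all rows were called lower and 39.1% higher. Acly (-0.89, adjusted p = 0.0917) and Mlxipl (-0.57, adjusted p = 0.294) were not, and Slc25a1 was at -0.03. Acss2 passed that scaling with a minimum mean of 5 (-1.58, limma adjusted p = 0.0226), where 0.578% of all rows were called lower and 26.2% higher. With total reads all 6 genes with a mean of at least 10 were called lower, where 38% of all rows were called lower and 8.04% higher. With a minimum mean of 5 and total reads, 9 of the 10 were called lower and 0 higher, against 33.5% and 4.83% of all rows.

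**Figure D2:**
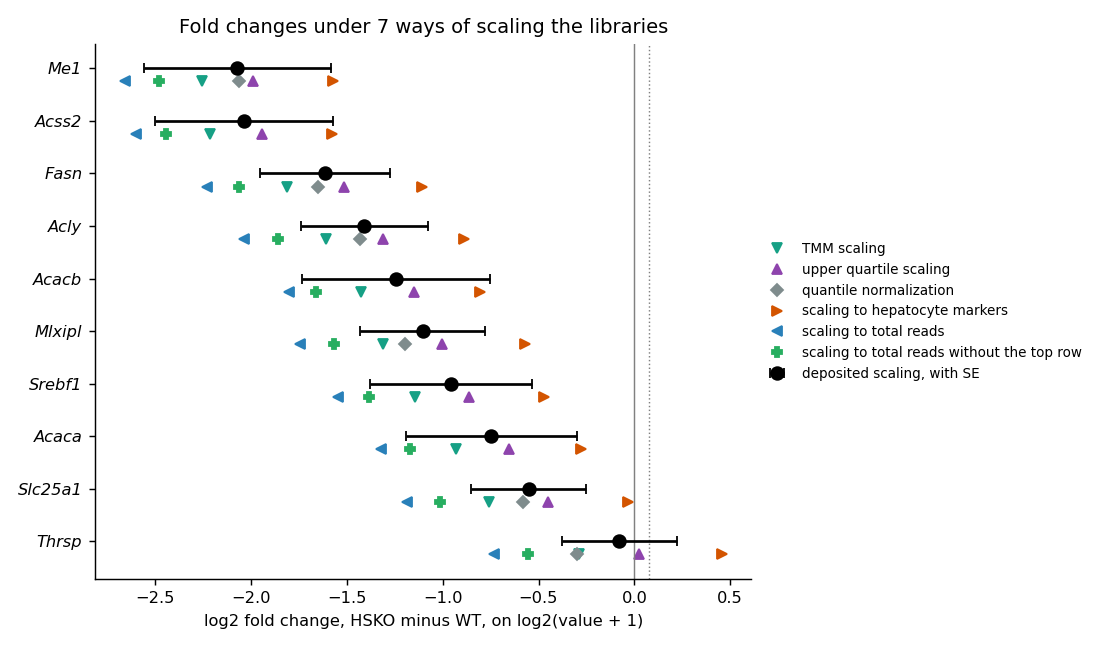
Log2 fold change of HSKO minus WT on log2(normalised reads + 1) for the 10 genes with the deposited scaling (black, SE from limma over rows with a mean of at least 5) and with 6 other scalings (coloured). Quantile normalization is drawn for the 6 genes with a mean of at least 10, and the dotted line is the median of all rows tested. Thrsp alone has points above 0, with hepatocyte marker and upper quartile scaling.

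Each gene was also set against the summed hepatocyte markers of its own library, a ratio that does not depend on how libraries are scaled. It was lower in HSKO livers in mean for 9 of the 10 genes, and for 21.7% of all rows with a mean of at least 10 and 25.8% of those with a mean of at least 5. Per 10000 units of marker signal Fasn had 7.95, 5.59 and 6.73 in HSKO livers, against 24.4, 12.1 and 12.1 in WT livers. Acss2 had 1.59, 5.59 and 1.92 in HSKO livers, against 7.79, 14.9 and 7.16 in WT livers. These were the 2 genes whose groups did not overlap (exact 2-sided permutation p = 0.1, the smallest possible, adjusted over 10 genes 0.4), while on this ratio 3.02% of all rows with a mean of at least 10 and 3.38% of those with a mean of at least 5 had every HSKO library below every WT library. Slc25a1 was 12.2 ± 2.37 in HSKO and 12.4 ± 1.70 in WT livers, and Thrsp was 29.9 ± 9.54 in HSKO and 22.0 ± 9.08 in WT livers (SD, n = 3 each). Of the 17 hepatocyte markers themselves, 7 were called lower and 0 higher by limma with the deposited scaling, where 11.6% of all rows were called lower. Their median log2 fold change was -0.58. Fgg (fibrinogen gamma chain, log2 fold change -0.73, adjusted p = 0.0174), Hpx (hemopexin, -0.82, adjusted p = 0.0187) and Apoa2 (an apolipoprotein of high density lipoprotein, -0.69, adjusted p = 0.0265) had the smallest p, while Hpd did not pass (-0.03). Tat, the tyrosine aminotransferase, named after its value was seen, had the opposite sign, at 131 ± 51.4 in HSKO and 79.8 ± 35.2 in WT livers (0.74, adjusted p = 0.0658). After scaling to the markers Tat was called higher (1.28), where 39.1% of all rows were called higher. The part of the hepatocyte marker difference in the fall of Acly and Mlxipl was not tested.

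**Figure D3:**
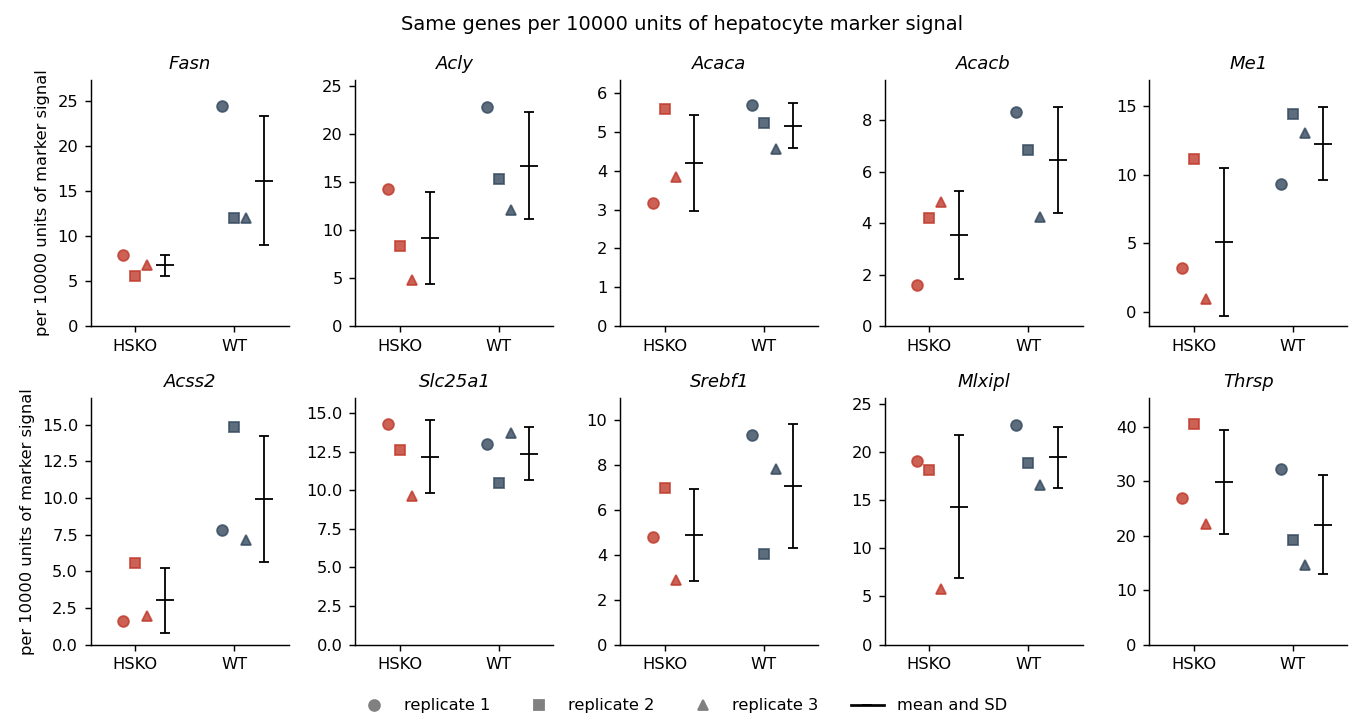
The 10 genes per 10000 units of summed hepatocyte marker signal of the same library (vertical axis, each panel with its own scale) in 3 HSKO and 3 WT samples, with mean and SD. Fasn and Acss2 are the panels without overlap, and the Slc25a1 means are 12.2 in HSKO and 12.4 in WT livers.

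Levels were compared between genes per kilobase of merged exons. In HSKO livers Thrsp stood highest at 14.9 ± 4.03 normalised reads per kilobase, then Slc25a1 at 6.09 ± 0.05 and Mlxipl at 2.67 ± 1.07 (SD, n = 3). In WT livers the same 3 led, at 15.9 ± 5.17, 9.22 ± 1.56 and 5.61 ± 0.44. Both groups kept Thrsp, Slc25a1 and Mlxipl apart without overlap. In HSKO livers Acly (1.80 ± 0.63), Me1 (1.38 ± 1.44), Srebf1 (0.926 ± 0.318), Fasn (0.683 ± 0.160), Acacb (0.432 ± 0.270), Acss2 (0.326 ± 0.221) and Acaca (0.274 ± 0.091) followed, each overlapping its neighbour. In WT livers the order went on with Me1 (5.20 ± 1.42), Acly (5.02 ± 1.23), Fasn (2.33 ± 0.82), Srebf1 (2.0 ± 0.72), Acss2 (1.58 ± 0.71), Acacb (1.06 ± 0.27) and Acaca (0.485 ± 0.020). There, Acly lay above Fasn and Acacb above Acaca without overlap, and the other neighbours overlapped. The order depends on the length used. Per kilobase of its coding transcript Acss2 was 1.54 ± 1.05 in HSKO and 7.49 ± 3.35 in WT livers, which moves it to rank 4 in WT livers, and Srebf1 lay above Fasn in mean in both groups, without overlap in HSKO livers.

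The rows most like Fasn over the 6 libraries were found by the root mean square difference of row-centred log2 values, among 2231 rows with a gene symbol. They were Plin2 (0.178), Id2 (0.229), Steap4 (0.255), Gpd1 (0.292) and Orm1 (0.305). Over all rows tested the median difference was 0.977. Plin2, a lipid droplet coat protein gene, had 40.9, 24.7 and 41.2 normalised reads in HSKO livers, against 122, 83.6 and 90.2 in WT livers. Like Fasn, it was highest in WT replicate 1 and lowest in HSKO replicate 2, a likeness that its choice by profile favours. Fasn had 5, 4 and 7 reads in the HSKO libraries, so counting error is large for its order there. Among the 6 genes of the pathway with a mean of at least 10, which alone were compared, Acly was nearest to Fasn (0.4), then Mlxipl (0.625), Slc25a1 (0.636), Thrsp (0.849) and Me1 (1.05), and Me1, though called lower as well, was thus farther from Fasn than the median row. Me1 had 2, 8 and 1 reads in the HSKO libraries, so counting error is large for its distance too.

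The steps next to palmitate synthesis were read with the same test, as counts of genes called. Over all rows tested, 11.6% were called lower and 28.5% higher, which is the background for each list below. Of 7 tested genes of desaturation and elongation (14 listed), 3 were lower and 0 higher, all 7 were below 0, with a median log2 fold change of -0.75. Fads1, a desaturase of polyunsaturated fatty acids, averaged 16.6 ± 8.75 normalised reads in HSKO and 43.4 ± 12.7 in WT livers (log2 fold change -1.40, limma adjusted p = 0.00337). Scd1, which makes monounsaturated fatty acids from the products of Fasn and Elovl6, had 158, 154 and 303 normalised reads in HSKO livers, against 258, 1406 and 663 in WT livers. Its groups overlapped, since HSKO replicate 3 lay above WT replicate 1, and it passed (log2 fold change -1.67, limma adjusted p = 0.00369) though not with robust variance estimation (adjusted p = 0.134). Elovl5, an elongase, was the third (-1.38, limma adjusted p = 0.0269). Its groups overlapped, with HSKO replicate 3 above 2 WT libraries, and the call was lost with DESeq2 (adjusted p = 0.125) and without WT replicate 2 (0.119), WT replicate 3 (0.0786), HSKO replicate 1 (0.141) or HSKO replicate 2 (0.116). Elovl6, the elongase of palmitate, did not pass (-0.60, adjusted p = 0.0898).

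NADPH for synthesis comes from Me1 and from other cytosolic enzymes. Of 6 tested genes of NADPH supply (10 listed), 4 were lower and 0 higher, where 11.6% of all rows were called lower. All 6 were below 0, with a median log2 fold change of -0.85. G6pdx, Pgd, Pgls and Nnt did not reach the minimum mean of 10 and were not tested. Tkt, the transketolase of the pentose phosphate pathway, averaged 12.1 ± 4.57 normalised reads in HSKO and 25.3 ± 1.09 in WT livers (log2 fold change -1.06, limma adjusted p = 0.0120), and was not called with DESeq2 (adjusted p = 0.0613) or without WT replicate 3 (0.0525). H6pd (-0.85, adjusted p = 0.0126), which makes NADPH within the endoplasmic reticulum, and Idh1 (-0.84, adjusted p = 0.0173), the cytosolic isocitrate dehydrogenase, were lower too, as was the folate enzyme gene Mthfd1 (-0.72, adjusted p = 0.0415), named after its value was seen. Idh1 was not called without WT replicate 2 (adjusted p = 0.0855), WT replicate 3 (0.0568) or HSKO replicate 3 (0.0541). Nadk, the NAD kinase, did not pass (-0.25, adjusted p = 0.494). Scaled to hepatocyte markers, 0 of the 6 tested genes of NADPH supply were called. Of the 7 tested genes of desaturation and elongation, Fads1 and Scd1 were called lower. With that scaling 0.909% of all rows were called lower and 39.1% higher.

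Of 8 tested genes of citrate and pyruvate supply (16 listed), 2 were lower and 0 higher, with a median log2 fold change of -0.29. Where 11.6% of all rows were called lower, 2 of 8 does not set this list apart. The 2 genes were Mdh1 (-0.70, limma adjusted p = 0.0336), the cytosolic malate dehydrogenase that makes the substrate of Me1, whose row also names AK046369, and Pcx (-0.71, adjusted p = 0.0467), the pyruvate carboxylase. Mdh2, the mitochondrial malate dehydrogenase, did not pass (0.03, adjusted p = 0.949). Both calls were lost, among other settings, with upper quartile scaling (adjusted p = 0.0777 for Mdh1 and 0.0858 for Pcx), with DESeq2 (0.0594 and 0.102) and without HSKO replicate 3 (0.0566 and 0.174), WT replicate 2 (0.0992 and 0.185) or WT replicate 3 (0.111 and 0.102). Without HSKO replicate 1 Mdh1 was lost (0.104), and without HSKO replicate 2 Pcx (0.0596). Scaled to hepatocyte markers, Pdha1 alone of this list was called, as higher (limma adjusted p = 0.0476), where 39.1% of all rows were called higher.

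Of 5 tested genes of SREBP processing and liver X receptor signalling (16 listed), 1 was lower and 0 higher, with a median log2 fold change of -0.63. Where 11.6% of all rows were called lower, 1 of 5 does not set this list apart. The gene was Insig1, which retains the SREBP precursor in the endoplasmic reticulum and is itself an SREBP target, at 7.31, 10.2 and 12.0 normalised reads in HSKO livers, against 25.2, 17.8 and 26.5 in WT livers (log2 fold change -1.16, limma adjusted p = 0.00890). Its groups did not overlap. The call was lost with scaling to hepatocyte markers (-0.65, adjusted p = 0.156), and leaving out WT replicate 3 ended it as well (-1.06, adjusted p = 0.0598). Insig2 (-0.81, adjusted p = 0.137), Scap (-0.63, adjusted p = 0.203), the escort of SREBP, and Rxra (-0.39, adjusted p = 0.223), the partner of the liver X receptors, did not pass. The liver X receptor genes themselves, Nr1h3 and Nr1h2, and Mbtps1 did not reach the minimum mean of 10 and were not tested.

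Of 7 tested genes of the ChREBP partner and carbohydrate target list (13 listed), 3 were lower and 0 higher, where 11.6% of all rows were called lower. The list had a median log2 fold change of -0.21. Mlx, the ChREBP partner, did not reach the minimum mean of 10 and was not tested. Slc2a2, the glucose transporter GLUT2, had 14.6, 10.2 and 9.31 normalised reads in HSKO livers, against 29.8, 33.6 and 37.2 in WT livers (log2 fold change -1.50, limma adjusted p = 0.000980). Gpd1, the glycerol 3-phosphate dehydrogenase, averaged 26.9 ± 2.72 in HSKO and 68.7 ± 22.6 in WT livers (-1.28, adjusted p = 0.00154), and Pklr, the liver pyruvate kinase, averaged 17.7 ± 7.38 in HSKO and 33.5 ± 3.62 in WT livers (-0.97, adjusted p = 0.0213). Pklr was not called with DESeq2 (adjusted p = 0.0687) or without WT replicate 1 (0.0585), WT replicate 3 (0.0569) or HSKO replicate 3 (0.11). Txnip, a strongly glucose-responsive gene, did not pass (0.04, adjusted p = 0.938). Slc2a2 was the gene of this list still called after scaling to hepatocyte markers (-0.97, adjusted p = 0.0321), where 0.909% of all rows were called lower.

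Of the lists around the pathway, 3 held 1 gene each that was called higher in HSKO livers, out of 4, 7 and 5 tested, shares below the 28.5% of all rows called higher. Mlycd, the malonyl-CoA decarboxylase that removes the substrate of Fasn, had 3297, 3321 and 4305 normalised reads in HSKO livers, against 2116, 1615 and 1187 in WT livers. Its means, 3641 in HSKO and 1639 in WT livers, were on the scale of Alb (3932 and 6426). They were far above the other tested genes of its list, and whether this row holds reads of other transcripts was not tested. All HSKO libraries lay above all WT libraries (log2 fold change 1.18, SE 0.26, limma adjusted p = 0.00168), and with total reads it did not pass (0.50, adjusted p = 0.05004). It was the 1 gene called among 4 tested genes of acetyl-CoA carboxylase and malonyl-CoA regulation (14 listed, 0 lower, median log2 fold change 0.08), where Cpt1a, the malonyl-CoA sensitive gate of mitochondrial fatty acid entry, did not pass (-0.30, adjusted p = 0.330).

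Lpin1, a phosphatidate phosphatase of triglyceride synthesis that also coactivates fasting genes, had 52.6, 61.1 and 63.8 normalised reads in HSKO livers, against 16, 29.6 and 26.5 in WT livers, again without overlap (log2 fold change 1.30, SE 0.28, limma adjusted p = 0.00152). Of 7 tested genes of fatty acid esterification (12 listed) it was the 1 higher, while Acsl1 (-1.20, adjusted p = 0.00126) and Acsl5 (-1.19, adjusted p = 0.00516), which activate fatty acids to their CoA esters, were lower, though not after scaling to hepatocyte markers (adjusted p = 0.0950 and 0.124). The median of that list was -0.51, and Dgat2, which completes triglyceride, did not pass (-0.14, adjusted p = 0.681). With total reads Lpin1 did not pass (0.64, adjusted p = 0.0935).

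Of 5 tested genes of the feeding and fasting response (13 listed), 2 were lower and 1 higher, with a median log2 fold change of -0.07. Over all rows tested, 11.6% were called lower and 28.5% higher. Pck1, which drives gluconeogenesis in fasting, had 551, 603 and 598 normalised reads in HSKO livers, against 333, 369 and 396 in WT livers (log2 fold change 0.67, limma adjusted p = 0.0201). Its groups did not overlap. With total reads its log2 fold change was -0.00027, and the call was also lost with TMM (0.46, adjusted p = 0.0714), quantile normalization (0.01, adjusted p = 0.968), edgeR (0.45, adjusted p = 0.0850), or when WT replicate 2 (0.0742) or HSKO replicate 2 (0.0866) was left out. Insr, the insulin receptor, averaged 9.50 ± 2.57 in HSKO and 20 ± 3.79 in WT livers (-1.02, adjusted p = 0.0238), and was not called with DESeq2 (adjusted p = 0.0884) or without WT replicate 2 (0.133), WT replicate 3 (0.0612) or HSKO replicate 3 (0.0656). Angptl4, a secreted inhibitor of lipoprotein lipase, did not pass (-0.04, adjusted p = 0.926).

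**Figure D4:**
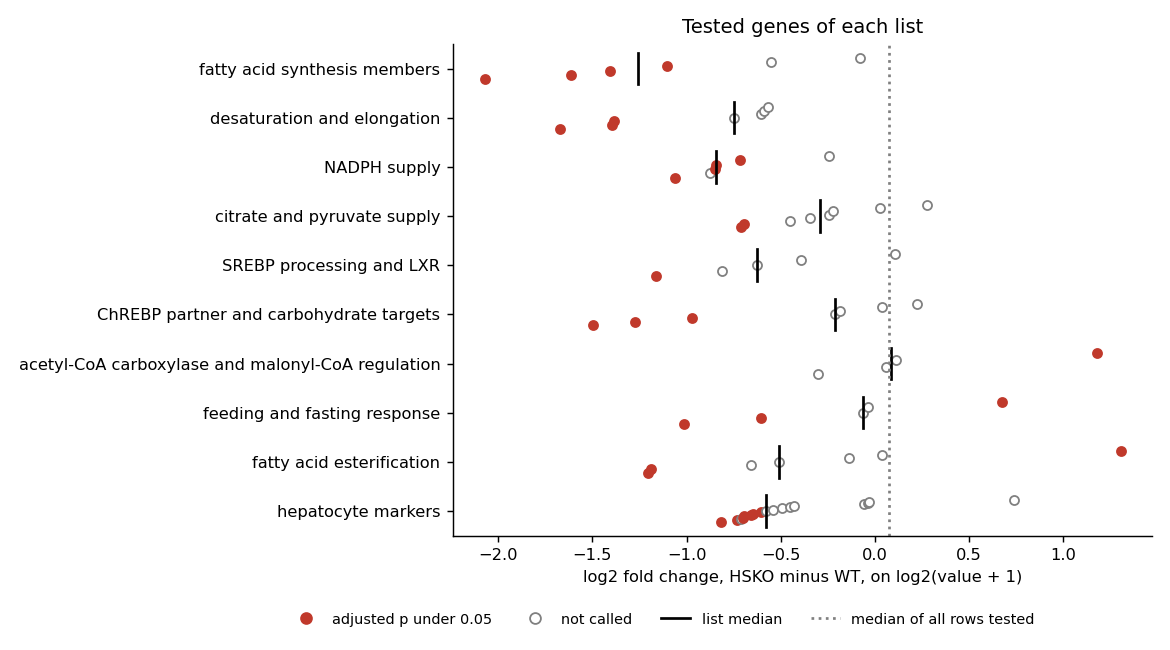
Log2 fold change of HSKO minus WT (horizontal axis) of each tested gene of 10 lists (rows), with genes at a limma adjusted p under 0.05 filled, the list median as a bar and the median of all rows tested, 0.07, as a dotted line. The genes of fatty acid synthesis have a median of -1.26 over the 6 tested, and Mlycd, Pck1 and Lpin1 are the filled points above 0.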

How the data were processed

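The authors deposited a normalised signal for each gene, reads over a library's size factor. Tools named in the submitters' processing notes are DESeq 1.16.0, RSEM 1.2.9, Bowtie and FastQC 0.11.3, with the build mm10. Libraries were stranded and paired-end, per the labels' protocols. No source used here gives the annotation or strand setting of the counting. Dividing each value by the value of 1 read gave whole reads for 100% of values (tolerance 0.001), and hence the depths. Of the rows, 712 name several genes.

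Genes were tested with limma 3.58.1 (R 4.3.3), taking log2(value + 1), with a mean-variance trend, over rows with a mean of at least 10, HSKO minus WT, 2-sided, with Benjamini-Hochberg adjustment at 0.05. Adjusted p-values are from limma unless edgeR 4.0.16 (quasi-likelihood, TMM) or DESeq2 1.42.0, both run on recovered reads, is named. Alternatives covered scaling, pseudocounts (0.5 and 5), filters and left-out libraries. The fits with a minimum mean of 5 under another scaling, tool or left-out library, and the coding transcript length, were chosen after seeing the data. The genes and lists were chosen with earlier results of these data known. The text names all 10 genes, Abca1, of each other list up to 3 tested genes with the smallest p and 1 that did not pass, and the 5 rows most like Fasn. Where more are named, their values had been seen, and some genes that the rule takes are not reported here. In simulated data of 2636 rows the test recovered 41 of 89 rows changed 2-fold and 83 of 85 changed 4-fold, with 4 of 128 calls false. The simulation gave all rows the same dispersion and the groups the same marker content. Its false calls therefore leave out errors from the choice of scaling. No 2 libraries of the same group agreed within counting noise. Exact intervals cover counting error only. Gene spans are from GENCODE M21 (mm10) and promoters from RefSeq.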

Additional observations from a re-analysis of the deposited data

How the results depend on the processing

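Of the 10 genes, 4 were called lower with the deposited scaling, TMM, upper quartile scaling, quantile normalization and both pseudocounts. The count was 2 with scaling to hepatocyte markers, 0 with a minimum mean of 50, which no member of the pathway reached, and 9 with a minimum mean of 5 and total reads, a setting that called 33.5% of all rows lower. Leaving out each library gave 3 to 4, or 3 to 5 with a minimum mean of 5, where Mlxipl and Acss2 were lost without WT replicate 2 and Mlxipl without HSKO replicate 3. No setting called any of the 10 higher.

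Of all rows, 320 were called lower. The count was 589 with TMM, 208 with upper quartile scaling, 502 with quantile normalization, 25 with hepatocyte markers, 1044 with total reads, 913 with total reads without the top row, 211 with no filter, 118 with a minimum mean of 50, 185 with DESeq2 and 601 with edgeR. Without 1 library it was 157 to 313, with 157 without WT replicate 3 and 159 without WT replicate 2. The 783 rows called higher became 221 with total reads, 429 with total reads without the top row and 391 with a minimum mean of 50. The call of Pck1 as higher reversed to -0.00027 with total reads, which moves the median of all rows by -0.64.

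Same-numbered samples did not deviate together (correlations of -0.026, -0.027 and -0.021), so the values gave no sign that the numbers pair them. With 3 samples per group this check cannot exclude a pairing. With a replicate block the pathway's count was 4. Of the fold changes of single genes under other settings, 785 kept direction and call, 86 lost a call, 30 gained one, 6 without a test shifted beyond the spread of the samples and 1 reversed. Depth limits single genes: 9 of the 10 genes had under 20 reads in every HSKO library, and 2-fold changes were often missed in simulation.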
